A study of Mus musculus with 12 samples.

Results

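Integrins, selectins and related adhesion molecules were followed in PUER cells, a mouse myeloid line, before and after activation of its PU.1 fusion protein and with or without an shRNA against Hnrnpa0. The members were all array probes whose gene name begins as an integrin, Icam, Vcam, Pecam or Jam gene or is that of a selectin, F11r, Cd44 or Cd9. This gave 97 of 41174 probes and 47 of 27666 genes. The name rule used no measured value, but the family was chosen with earlier results of these data known. PUER cells lack PU.1 of their own and carry a PU.1 fusion to an estrogen receptor domain that 4-hydroxytamoxifen (4-OHT) switches on. All groups shared this background, growth in IL-3, a retroviral vector and a sort for its GFP. The 4 groups of 3 arrays were shRNA cells after 24 h in 2 nM 4-OHT, shRNA cells before 4-OHT, control vector cells after 4-OHT, and control vector cells before it. The control vector's content is not described beyond its name, the replicates A, B and C may be separate clones of each vector or separate experiments, and no array of vehicle-treated cells is named. The p-values therefore measure the spread between these replicates, whichever they are. One comparison follows these genes as the fusion is switched on, and the other asks whether Hnrnpa0 loss alters them.

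Integrins are membrane proteins of paired alpha and beta chains that bind matrix or other cells, and signals inside the cell switch them between resting and binding states. Leukocytes carry the beta-2 integrins, in which the Itgb2 chain pairs with Itgal, Itgam, Itgax or Itgad; their ligands include the immunoglobulin-like Icam proteins. Selectins bind sugars on passing cells and let leukocytes roll before they stop. Itgam, known as CD11b, and Itgax, known as CD11c, mark maturing myeloid cells.

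Of the 47 genes, 32 were measured well enough to test: 3 or more of the 12 arrays read one of their probes well above background. The other 15 were Itga2, Itga2b, Itga8, Itga9, Itga10, Itga11, Itgb2l, Itgb6, Itgb8, Itgbl1, Itgb1bp2, Sele, Jam3, Igsf5 (listed as Jam4) and Nmrk2 (listed as Itgb1bp3). Itga8 and Itga10 each had a probe well above background on 1 array, and the rest of the 15 on 0 arrays. Itgad had no probe. The selectin ligand Selplg is named Selpl in the files and so fell outside the rule. Levels are log2 intensities relative to each array's 75th percentile, so 0 is the 75th percentile, and levels of different probes are not comparable. Across genes, which are no independent replicates, arrays correlated at 0.990 to 0.995 (Pearson r) within a group and at 0.953 to 0.992 between groups. Hnrnpa0, the shRNA's target, was lower in shRNA cells than in control cells by a log2 difference of -2.10 (adjusted p = 0.00511) after 4-OHT and -1.54 (adjusted p = 0.0127) before it. With slide as a random block the Hnrnpa0 differences were -1.81 (adjusted p = 0.0527) and -1.57 (adjusted p = 0.0944), and as a fixed block -1.38 (adjusted p = 0.0897) and -1.38 (adjusted p = 0.114), so neither call held. The arrays lay on 3 slides, and shRNA and control arrays of the same treatment never shared a slide.

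The promoters of 4 members whose levels changed with 4-OHT are printed because the activated fusion is a DNA-binding protein. RefSeq promoters on GRCm38.p6 were on hand for 31 of the 47 genes. The 250 bases before the start were searched on both strands for GAGGAA, the core letters of a PU.1-type ETS site, shown in capitals (TTCCTC on the other strand). Itgax lies on the plus strand at chr7:128129300-128129549, Icam1 at chr9:21015690-21015939, Itgam at chr7:128062390-128062639, and Selp at chr1:164115014-164115263.
Itgam: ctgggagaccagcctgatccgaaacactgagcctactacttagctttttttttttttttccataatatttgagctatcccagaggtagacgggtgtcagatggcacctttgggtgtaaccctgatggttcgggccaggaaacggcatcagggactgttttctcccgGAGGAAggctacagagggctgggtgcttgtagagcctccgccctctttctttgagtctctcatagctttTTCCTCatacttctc
Itgax: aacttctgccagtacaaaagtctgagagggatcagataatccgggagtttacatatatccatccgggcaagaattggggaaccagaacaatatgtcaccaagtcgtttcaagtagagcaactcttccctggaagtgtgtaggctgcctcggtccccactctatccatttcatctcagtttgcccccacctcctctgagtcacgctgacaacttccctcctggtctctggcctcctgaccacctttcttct
Icam1: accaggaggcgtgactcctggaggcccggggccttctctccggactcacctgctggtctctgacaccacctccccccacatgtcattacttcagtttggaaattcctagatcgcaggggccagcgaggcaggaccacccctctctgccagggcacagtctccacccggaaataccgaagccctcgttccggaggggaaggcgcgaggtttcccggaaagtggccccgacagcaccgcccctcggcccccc
Selp: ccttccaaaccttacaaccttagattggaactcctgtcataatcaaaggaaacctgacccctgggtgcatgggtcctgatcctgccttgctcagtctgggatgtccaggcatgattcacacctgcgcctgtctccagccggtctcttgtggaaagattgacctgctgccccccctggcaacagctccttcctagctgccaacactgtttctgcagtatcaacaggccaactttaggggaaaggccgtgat
The Itgam window held the letters on both strands, with matches whose first bases lay 84 and 15 bases before the start, and the windows of Itgax, Icam1 and Selp held none. Over all members matched, 12 of 31 genes had a match, or 38.7%, beside 25.8% of 27025 genes with a promoter. Among members that rose in control cells it was present in 3 of 9, and among those that fell in 0 of 2. The rest of the 12 did not pass in control cells (F11r, Itga3, Itgav and Itgb1) or were not tested (Itga11, Itga2b, Itgb2l, Itgb6 and Sele). A match is a description of these letters and not of binding.

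With 4-OHT, the leukocyte integrin genes Itgax and Itgam and the ligand gene Icam1 rose, while Vcam1, Selp, Pecam1 and the mucosal integrin genes Itgae and Itgb7 fell, in both vectors. In shRNA cells 8 of 32 members rose, beside 16.5% of all 15061 genes tested, and 8 fell, beside 21.8% of all genes. In control cells 10 of 32 members rose, beside 17.5% of all genes, and 8 fell, beside 23% of all genes. The members' median log2 change was 0.01 in shRNA cells and 0.13 in control cells, against -0.08 and -0.07 over all genes. The share that fell (25.0% in both vectors) was near the background, and the share that rose (25.0% in shRNA and 31.3% in control cells) lay above it. Itgax, Icam1 and Icam4 were well above background on no array before 4-OHT. They were thus among the 32 only through the groups where they are high, and the share that rose is given with that limit. In these bulk samples, fewer cells of a type and less RNA per cell cannot be told apart. Without vehicle arrays, effects of the drug itself or of time in culture cannot be told apart from those of the fusion. Between the 4 arrays of the same slide, 14 of the 16 calls in shRNA cells and 13 of the 18 in control cells passed, but 1 arm there is a single array, assumed to vary like the 3 of the other arm.

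**Figure D1:**
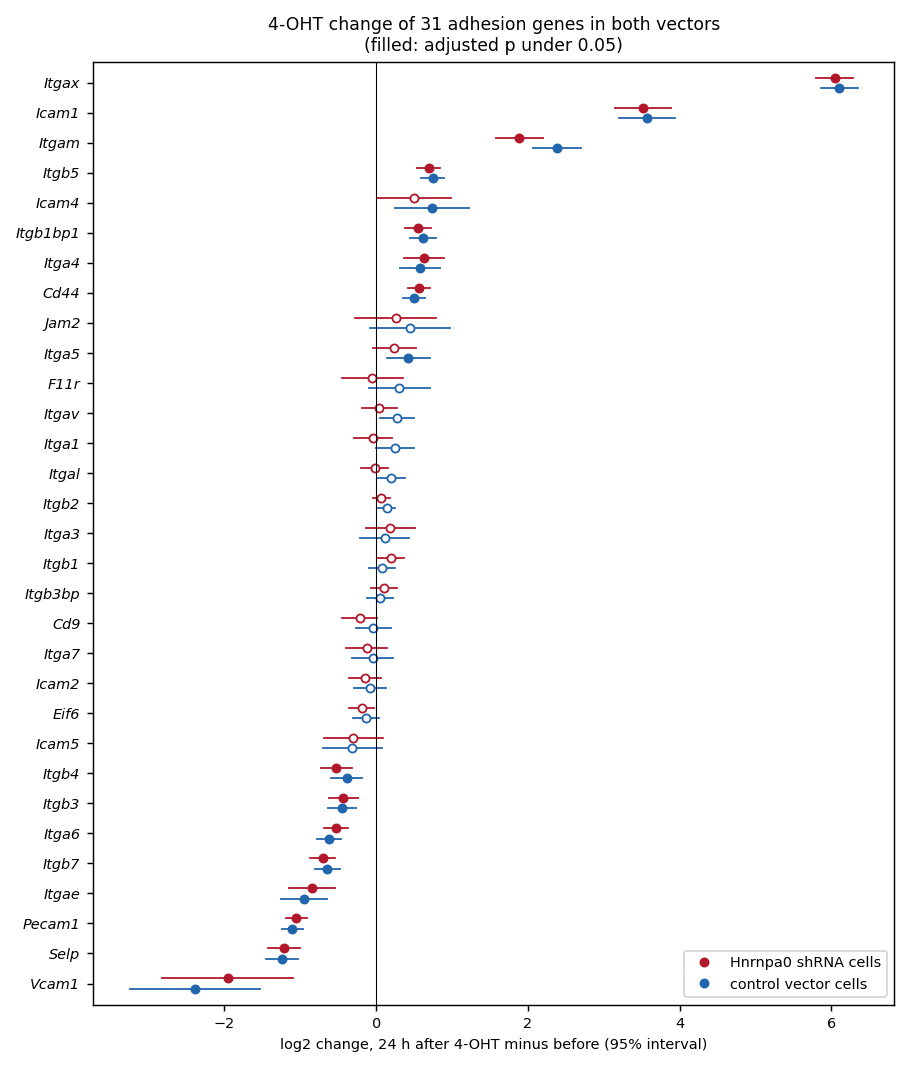
Log2 change 24 h after 4-OHT (after minus before) of 31 of the 32 tested adhesion genes, in shRNA cells (red, upper) and control vector cells (blue, lower), with 95% intervals. Filled points passed an adjusted p of 0.05; Itgax, Icam1 and Itgam lie farthest to the right and Vcam1 farthest to the left in both vectors.

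The beta-2 leukocyte integrins split by chain: Itgax and Itgam rose, and the shared chain Itgb2 and the lymphocyte-type chain Itgal did not pass in either vector. Itgax, the alpha chain of CD11c, read -1.03, -1.02 and -1.08 (log2 level, replicates A, B and C) in shRNA cells after 4-OHT, against -7.06, -6.97 and -7.26 before it. In control cells it read -0.95, -0.70 and -0.62 after 4-OHT, against -6.69, -6.98 and -6.92 before it. No array taken before 4-OHT was well above background, so the rise is a bound: at least 17.8-fold in shRNA cells (adjusted p = 8.02e-11) and at least 15.2-fold in control cells (adjusted p = 6.65e-11). These bounds hold for the scanner's background subtraction: with normexp correction the log2 changes of Itgax were smaller, 3.05 in shRNA cells and 3.21 in control cells, and passed. Each bound sets the bright group against the faintest well-above-background signal of each dim array, or the probe's own signal where that was higher.

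Itgam, the alpha chain of CD11b, read -0.13, -0.19 and -0.51 in shRNA cells after 4-OHT, against -2.20, -2.01 and -2.29 before it. In control cells it read -0.25, 0.14 and 0.15 after 4-OHT, against -2.48, -2.21 and -2.41 before it. All 6 arrays after 4-OHT lay above all 6 before it. The log2 change was 1.89 (SE 0.14, adjusted p = 2.26e-06), or 3.71-fold, in shRNA cells and 2.38 (SE 0.14, adjusted p = 3.21e-07), or 5.22-fold, in control cells. A second Itgam probe gave 1.82 and 2.34. The Itgam probe lies at chr7:124214519-124214578 and the Itgax probe at chr7:124247096-124247155 on build mm7, the build of the array design.

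The partner chain Itgb2 was bright throughout and moved little: 4.00, 4.01 and 4.09 in shRNA cells after 4-OHT against 3.98, 3.96 and 3.95 before it, and 4.05, 4.04 and 4.05 in control cells after 4-OHT against 3.92, 3.94 and 3.87 before it. Its arrays did not overlap between treatments in either vector, but the changes of 0.07 (adjusted p = 0.317) and 0.14 (adjusted p = 0.0611) did not pass. Itgal, the alpha chain of LFA-1, changed by -0.02 (adjusted p = 0.884) in shRNA cells and 0.20 (adjusted p = 0.0741) in control cells.

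**Figure D2:**
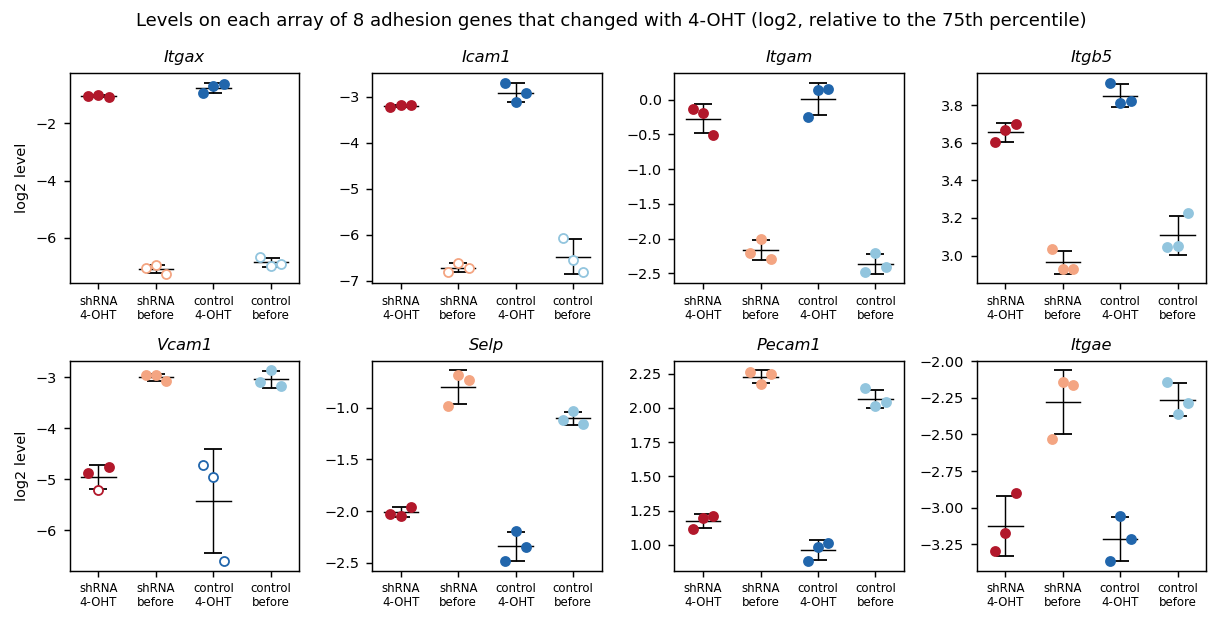
Log2 level relative to the array's 75th percentile of 8 adhesion genes on each of the 12 arrays, by group, with mean and SD (n = 3). Open points were not well above background. For each gene the arrays of a vector after 4-OHT do not overlap those before it, but the genes were picked for passing with 4-OHT.

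Among the immunoglobulin-like molecules, Icam1 rose and Vcam1 and Pecam1 fell in both vectors. Icam1, a ligand of the beta-2 integrins, read -3.23, -3.18 and -3.19 in shRNA cells after 4-OHT, against -6.81, -6.61 and -6.73 before it. The control cells read -2.69, -3.12 and -2.91 after 4-OHT, against -6.07, -6.55 and -6.80 before it. It was well above background on all 6 arrays after 4-OHT and on none of the arrays before it. The bound on its rise was at least 4.00-fold in shRNA cells (adjusted p = 7.80e-08) and at least 3.41-fold in control cells (adjusted p = 5.66e-08). With normexp correction the log2 changes of Icam1 were smaller than these bounds, 1.26 in shRNA cells and 1.47 in control cells, and passed.

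Vcam1, which binds the integrin of Itga4 and Itgb1, read -4.88, -5.22 and -4.76 in shRNA cells after 4-OHT, against -2.95, -2.96 and -3.08 before it. Control cells had -4.72, -4.96 and -6.60 after 4-OHT, against -3.09, -2.86 and -3.17 before it. After 4-OHT it was well above background on 2 of 3 shRNA arrays and on none of the control arrays. The log2 change was -1.96 (SE 0.39, adjusted p = 0.00245) in shRNA cells, and in control cells it was at least 3.81-fold lower (adjusted p = 0.000602). With normexp background correction the log2 changes were -1.06 in shRNA cells and -0.65 in control cells.

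Pecam1, which joins leukocytes and endothelial cells at their contacts, read 1.12, 1.20 and 1.21 in shRNA cells after 4-OHT, against 2.27, 2.17 and 2.24 before it. The control cells read 0.88, 0.99 and 1.02 after 4-OHT, against 2.14, 2.01 and 2.04 before it. The arrays of each treatment lay close together, and the change was -1.05 (SE 0.06, adjusted p = 4.84e-07) in shRNA cells and -1.10 (SE 0.06, adjusted p = 2.71e-07) in control cells. Its probe spans an interval of chr11:106790116-106791969 on mm7.

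Icam4, a red-cell ligand of leukocyte integrins, read -4.60, -4.78 and -4.16 in shRNA cells after 4-OHT, against -5.06, -5.08 and -4.90 before it. Control cells had -3.52, -4.21 and -4.30 after 4-OHT, against -4.46, -4.91 and -4.87 before it. It passed in control cells, at least 1.54-fold (adjusted p = 0.0207), and not in shRNA cells, where the log2 change was 0.50 (adjusted p = 0.0979). The call in control cells was lost without control replicate B before 4-OHT (log2 change 0.66), control replicate C before 4-OHT (0.68) or control replicate A after 4-OHT (0.49). Icam2, Icam5, F11r and Jam2, molecules of leukocyte, neuronal and junctional contacts, did not pass in either vector, with log2 changes between -0.31 and 0.45.

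Among the selectins, Selp fell in both vectors. Selp, P-selectin, which platelets and endothelium store and release to the surface, read -2.03, -2.05 and -1.96 in shRNA cells after 4-OHT, against -0.98, -0.68 and -0.73 before it. The control cells read -2.48, -2.20 and -2.35 after 4-OHT, against -1.12, -1.03 and -1.16 before it. Its change was -1.21 (SE 0.10, adjusted p = 3.44e-06) in shRNA cells and -1.24 (SE 0.10, adjusted p = 2.54e-06) in control cells, and a second probe gave -0.86 and -1.08.

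Selp, Pecam1 and Vcam1 are also genes of platelets or endothelium, so markers of those cells were read beside them. Of 9 endothelial markers 2 were tested. Egfl7 fell, by 0.49 in shRNA cells and by 0.63 in control cells; Robo4 did not pass, and Cdh5, Kdr, Tie1 and Cldn5 were never well above background on any array. Of 9 megakaryocyte and platelet markers 3 were tested: Vwf and Gp1bb fell and Ppbp rose in both vectors, while Pf4, Gp9, Gp5 and Gp6 were never well above background. The summed log2 level of the platelet list was -0.96 to -0.82 in shRNA cells after 4-OHT against 0.01 to 0.09 before it, and -1.16 to -0.76 in control cells after 4-OHT against -0.00087 to 0.12 before it. The summed endothelial list lay at 1.61 to 1.68 after 4-OHT against 2.10 to 2.14 before it in shRNA cells, and at 1.36 to 1.61 against 2.07 to 2.12 in control cells. Their part in the changes was not tested.

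Cd44, the hyaluronan receptor, rose. It read 2.76, 2.74 and 2.67 in shRNA cells after 4-OHT, against 2.09, 2.11 and 2.26 before it, and 2.79, 2.75 and 2.73 in control cells after 4-OHT, against 2.20, 2.26 and 2.32 before it. The change was 0.57 (adjusted p = 5.29e-05) in shRNA cells and 0.50 (adjusted p = 0.000125) in control cells. Cd9, a tetraspanin that associates with integrins, did not pass with 4-OHT (-0.22 and -0.04), and its probe was saturated on 8 of 12 arrays.

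In the beta-1 family 7 of 12 genes were tested. Itga4, the alpha chain of VLA-4, and Itga6, a laminin receptor chain, changed in both vectors. Itga4 read 0.66, 0.66 and 0.75 in shRNA cells after 4-OHT, against 0.11, -0.02 and 0.09 before it, and 0.56, 0.68 and 0.89 in control cells after 4-OHT, against -0.14, 0.24 and 0.30 before it. It rose by 0.63 (SE 0.12, adjusted p = 0.00187) in shRNA cells and 0.58 (SE 0.12, adjusted p = 0.00294) in control cells, and its 4 other probes gave changes between 0.47 and 1.10.

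Itga6 read 2.74, 2.67 and 2.64 in shRNA cells after 4-OHT, against 3.12, 3.27 and 3.24 before it, and 2.53, 2.67 and 2.58 in control cells after 4-OHT, against 3.27, 3.26 and 3.12 before it. It fell by 0.53 (adjusted p = 0.000184) in shRNA cells and by 0.62 (adjusted p = 4.87e-05) in control cells. Itga5, the fibronectin receptor's alpha chain, rose in control cells (0.42, adjusted p = 0.0221) and had a change of 0.24 (adjusted p = 0.167) in shRNA cells. The difference between those responses was -0.19 (adjusted p = 0.957). The common chain Itgb1 and the chains Itga1, Itga3 and Itga7 did not pass in either vector, with changes between -0.12 and 0.25.

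Among the alpha-v and platelet integrins, Itgb5, a vitronectin receptor chain, rose and Itgb3, the beta chain of the platelet integrin and of the osteoclast vitronectin receptor, fell. Itgb5 read 3.60, 3.67 and 3.70 in shRNA cells after 4-OHT, against 3.03, 2.93 and 2.93 before it, and 3.92, 3.81 and 3.82 in control cells after 4-OHT, against 3.04, 3.05 and 3.23 before it. Its groups did not overlap, and it rose by 0.69 (adjusted p = 2.21e-05) in shRNA cells and 0.74 (adjusted p = 1.12e-05) in control cells. Itgb3 lay between -0.76 and -0.61 in shRNA cells after 4-OHT, against -0.30 to -0.16 before it, and fell by 0.43 (adjusted p = 0.00228). In control cells it lay between -0.73 and -0.46 after 4-OHT, against -0.24 to -0.06 before it, and fell by 0.45 (adjusted p = 0.00164). Itgav, the alpha chain that pairs with both, did not pass, with changes of 0.04 and 0.27 (adjusted p = 0.768 and 0.0550).

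All 3 genes of the beta-4 and beta-7 chains and the alpha-E partner fell in both vectors. Itgae, which with Itgb7 binds E-cadherin on epithelium, read -3.30, -3.18 and -2.90 in shRNA cells after 4-OHT, against -2.53, -2.14 and -2.16 before it. Control cells had -3.36, -3.06 and -3.21 after 4-OHT, against -2.14, -2.36 and -2.29 before it. It fell by 0.85 (adjusted p = 0.000645) in shRNA cells and by 0.95 (adjusted p = 0.000255) in control cells. With normexp correction the Itgae change in control cells was -0.48 (adjusted p = 0.0362).

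Itgb7, also the partner of Itga4 in gut homing, read -0.64, -0.51 and -0.47 in shRNA cells after 4-OHT, against 0.22, 0.16 and 0.10 before it. The control cells read -0.35, -0.43 and -0.51 after 4-OHT, against 0.31, 0.21 and 0.14 before it. Its groups did not overlap, and it fell by 0.70 (adjusted p = 3.03e-05) in shRNA cells and by 0.65 (adjusted p = 5.11e-05) in control cells. Itgb4, the hemidesmosome chain that pairs with Itga6, fell by 0.53 (adjusted p = 0.00113) in shRNA cells and by 0.39 (adjusted p = 0.00629) in control cells. A second Itgb4 probe gave -0.45 (adjusted p = 0.0105) in shRNA cells and -0.19 (adjusted p = 0.216) in control cells, where it did not pass.

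Of the genes named for an integrin without being a subunit, Itgb1bp1, whose product binds the Itgb1 tail, rose. It read 3.51, 3.43 and 3.48 in shRNA cells after 4-OHT, against 2.93, 2.90 and 2.94 before it, and 3.85, 3.60 and 3.58 in control cells after 4-OHT, against 3.02, 3.02 and 3.13 before it. It rose by 0.55 (adjusted p = 0.000236) in shRNA cells and 0.62 (adjusted p = 9.15e-05) in control cells. Itgb3bp and Eif6 (listed as Itgb4bp), a kinetochore protein and a ribosome assembly factor, did not pass on their brightest probes, with changes between -0.19 and 0.10.

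Genes that act around these receptors were counted in the same fit, with no test of a list as a set. Beside them, 16.5% of all genes rose and 21.8% fell in shRNA cells, and 17.5% rose and 23% fell in control cells. Of 41 tested genes of integrin activation and the adhesion plaque, 22 rose and 10 fell in shRNA cells, and 21 rose and 8 fell in control cells. The median log2 change of that list was 0.28 and 0.26, against -0.08 and -0.07 over all genes. Apbb1ip, which brings talin to integrins, rose at least 4.75-fold in shRNA cells and at least 2.74-fold in control cells, and the talin gene Tln1 rose by a log2 0.35 and 0.39. The docking protein gene Bcar1 fell by 4.73 in shRNA cells and by 4.13 in control cells, and Rapgef3, an exchange factor for Rap1, fell by 3.53 and by 3.91.

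The counts of the next 4 lists stand beside the same shares of all genes, 16.5% higher and 21.8% lower in shRNA cells. In control cells these shares were 17.5% and 23%. Of 9 tested extracellular ligands, 3 rose and 3 fell in shRNA cells, and 4 rose and 3 fell in control cells. Tgfbi, an integrin-binding matrix protein, rose by a log2 3.98 in shRNA cells and 3.90 in control cells, and Thbs1, which encodes thrombospondin, fell by 2.08 and by 1.85. Of 18 genes that build selectin ligands, 3 rose and 6 fell in shRNA cells, and 5 rose and 7 fell in control cells. The branching enzyme gene Gcnt1 rose by 2.01 and 2.43, and the sialyltransferase gene St3gal6 fell by 2.16 and by 2.04. Of 10 tetraspanins, 2 rose and 3 fell in shRNA cells, and 4 rose and 2 fell in control cells. Of 10 membrane linkers and sheddases that act on adhesion receptors such as CD44, 4 rose and 1 fell in shRNA cells, and 3 rose and 1 fell in control cells. Moesin, encoded by Msn, which ties CD44 to actin, rose by 0.92 in shRNA cells and 0.80 in control cells.

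**Figure D3:**
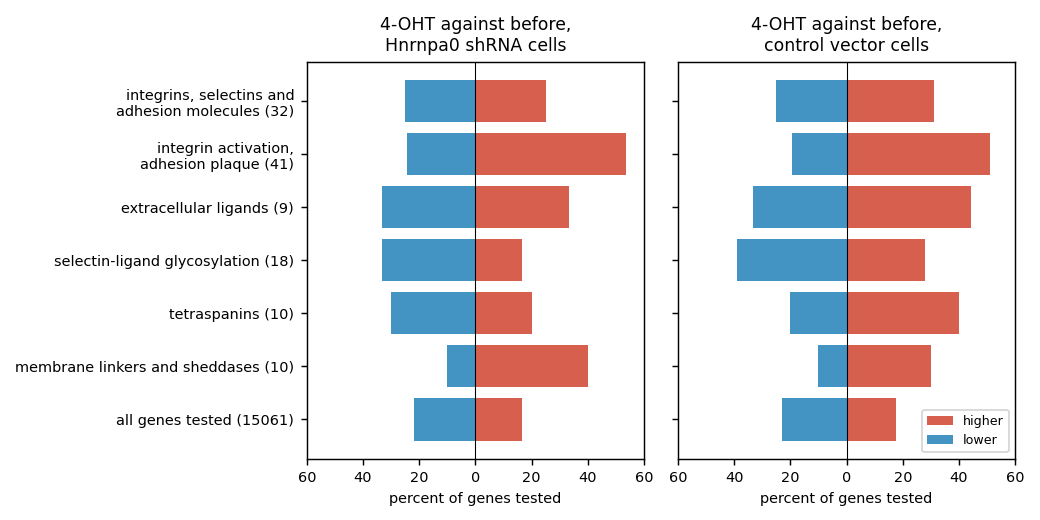
Percent of the tested genes of each list that passed an adjusted p of 0.05 with 4-OHT, higher (right) or lower (left), in shRNA cells (left panel) and control cells (right panel); the number tested stands in brackets. The bottom bar is all 15061 genes, of which 16.5% rose and 21.8% fell in shRNA cells and 17.5% rose and 23% fell in control cells.

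Markers of several cell types moved with these genes. Of 9 macrophage markers tested, 8 rose in both vectors, and their summed log2 level was 5.87 to 6.17 in shRNA cells after 4-OHT against 5.41 to 5.61 before it, and 6.42 to 6.63 in control cells after 4-OHT against 5.52 to 5.90 before it. In both vectors, 1 of 8 myeloid progenitor markers rose and 5 fell, 0 of 5 mast cell markers rose and 3 fell, and 4 of 9 neutrophil markers rose and 2 fell. Over all genes 16.5% rose and 21.8% fell in shRNA cells, and 17.5% rose and 23% fell in control cells. The progenitor list holds Spi1, the gene of PU.1, which fell, with log2 changes of -0.42 in shRNA cells and -0.59 in control cells. PUER cells lack PU.1 of their own, and what the Spi1 probe measures in them was not tested. The summed neutrophil level was lower after 4-OHT. It was 6.14 to 6.45 in shRNA cells after 4-OHT against 6.76 to 6.92 before it, and 6.36 to 6.71 in control cells after 4-OHT against 6.91 to 7.31 before it. The summed mast cell level was -0.43 to -0.35 in shRNA cells after 4-OHT against 0.54 to 0.69 before it, and -0.63 to -0.30 in control cells after 4-OHT against 0.50 to 0.62 before it, with Cpa3, Tpsb2 and Tpsab1 never well above background. The summed progenitor level was 6.47 to 6.89 in shRNA cells after 4-OHT against 7.19 to 7.39 before it, and 6.55 to 7.01 in control cells after 4-OHT against 7.25 to 7.50 before it. Their part in the changes was not tested. The 5 genes outside the family whose level followed Itgam most closely over the 12 arrays were Cnr2 (Pearson r = 0.997), Slfn3 (0.994), Fgd2 (0.994), Zdhhc5 (0.994) and Rassf6 (0.993). These correlations are descriptions, since the 12 points form groups that 4-OHT sets apart.

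Between the vectors, the members differed less than with 4-OHT. Before 4-OHT, 0 of 32 passed with limma, beside 0.378% of all genes, and 5 had an unadjusted p under 0.05. After 4-OHT, 8 of 32 passed (25.0%), beside 16.7% of all genes, 4 lower and 4 higher in shRNA cells. F11r, Cd9, Itgav and Itgb4 were lower, and Selp, Itgb3bp, Itgb1 and Pecam1 were higher. All had log2 differences under 1 in size, and all adjusted p-values lay between 0.0203 and 0.0463. With slide in the fit, as a fixed or as a random block, 0 of the 8 passed, beside 1 and 0 of all 15061 genes. The loss is thus not particular to these members, and vector and slide cannot be told apart within a treatment. The count also rested on single arrays. After 4-OHT, leaving out shRNA replicate A, B or C gave 2, 0 and 1 calls, and leaving out control replicate A, B or C gave 1, 0 and 4. Of the arrays before 4-OHT, leaving out shRNA replicate B gave 2, and leaving out control replicate A, B or C gave 4, 3 and 3.

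F11r, the junctional adhesion molecule A of leukocytes and platelets, read 0.16, -0.12 and -0.40 in shRNA cells after 4-OHT, against 0.70, 0.63 and 0.27 in control cells. All shRNA arrays lay below all control arrays, and the difference was -0.65 (SE 0.18, adjusted p = 0.0386), or -0.23 with slide as a fixed block. Itgav read -0.71, -0.61 and -0.85 in shRNA cells after 4-OHT, against -0.33, -0.43 and -0.31 in control cells. The groups did not overlap, and the difference was -0.37 (SE 0.10, adjusted p = 0.0368), or 0.0042 with slide as a fixed block.

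Itgb4 read -1.42, -1.41 and -1.38 in shRNA cells after 4-OHT, against -1.09, -0.93 and -1.19 in control cells. The difference was -0.33 (SE 0.09, adjusted p = 0.0372), and -0.20 (adjusted p = 0.235) before 4-OHT. Cd9 read 4.62, 4.57 and 4.73 in shRNA cells after 4-OHT, against 5.23, 5.19 and 4.92 in control cells, a difference of -0.47 (SE 0.10, adjusted p = 0.0203). The spots were saturated on 2 of the 3 shRNA arrays and on all 3 control arrays, so the size of the difference is not measured. A second, unsaturated Cd9 probe differed by -0.02 (adjusted p = 0.970).

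Among the members that were higher, Selp read -2.03, -2.05 and -1.96 in shRNA cells after 4-OHT, against -2.48, -2.20 and -2.35 in control cells. The difference was 0.33 (SE 0.10, adjusted p = 0.0428), and 0.31 (adjusted p = 0.121) before 4-OHT. Pecam1 read 1.12, 1.20 and 1.21 in shRNA cells, against 0.88, 0.99 and 1.02 in control cells, with a difference of 0.21 (SE 0.06, adjusted p = 0.0463). Both genes are ones that 4-OHT lowered in both vectors.

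Itgb1 read 1.54, 1.54 and 1.52 in shRNA cells after 4-OHT, against 1.16, 1.30 and 1.35 in control cells. The difference was 0.27 (SE 0.08, adjusted p = 0.0435), or -0.02 with slide as a fixed block, and a second probe gave 0.11. Itgb3bp read 0.54, 0.60 and 0.57 in shRNA cells, against 0.42, 0.22 and 0.21 in control cells, a difference of 0.29 (SE 0.08, adjusted p = 0.0350). For none of these 8 members did the arrays of the vectors overlap after 4-OHT. They were picked by their p-values on these same arrays, so this is no further support.

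**Figure D4:**
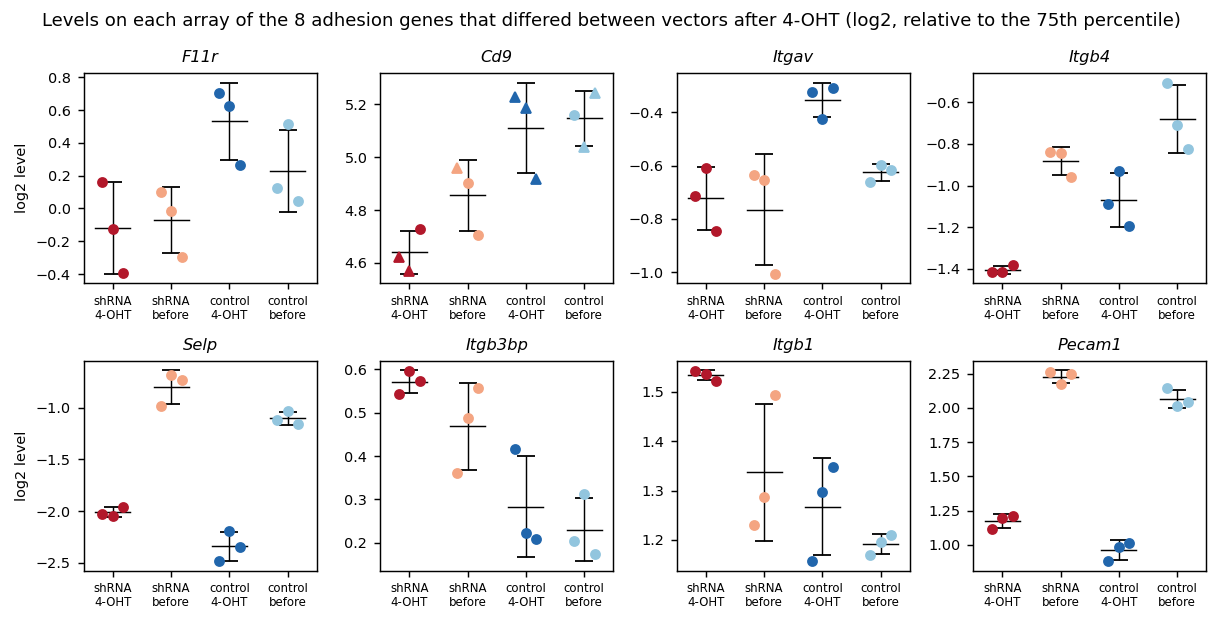
Log2 level relative to the array's 75th percentile of the 8 members that passed between vectors after 4-OHT, on each of the 12 arrays by group, with mean and SD (n = 3); triangles mark saturated spots. The shRNA arrays after 4-OHT do not overlap the control arrays after 4-OHT in any panel, but the members were picked for passing on these arrays.

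**Figure D5:**
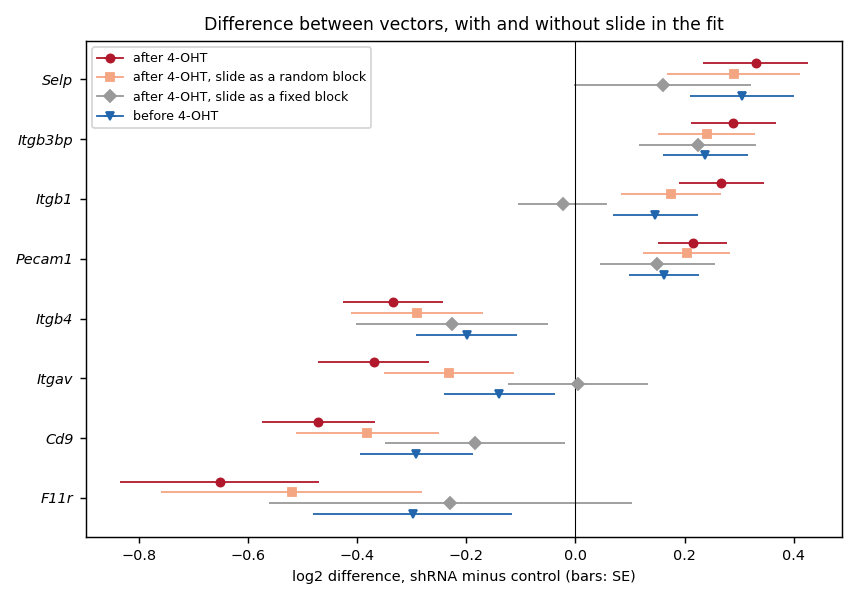
Log2 difference, shRNA minus control, of those 8 members after 4-OHT, alone and with slide as a random or fixed block, and before 4-OHT; bars are SE. With slide as a fixed block Itgav and Itgb1 lie near 0, at 0.0042 and -0.02, and the other 6 keep their side.

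Before 4-OHT, the members with the smallest unadjusted p were Itga1, Selp and Itgb3bp. Itga1, a collagen receptor chain, read -3.52, -3.80 and -3.78 in shRNA cells before 4-OHT, against -4.17, -4.14 and -4.09 in control cells. The groups did not overlap, and the difference of 0.43 (SE 0.11) did not pass (adjusted p = 0.0847). Selp read -0.98, -0.68 and -0.73 in shRNA cells, against -1.12, -1.03 and -1.16 in control cells. Itgb3bp read 0.36, 0.49 and 0.56 in shRNA cells, against 0.20, 0.31 and 0.17 in control cells, a difference of 0.24 (adjusted p = 0.130).

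Some macrophage markers also passed between the vectors in the main fit, where 16.7% of all genes passed after 4-OHT in either direction. After 4-OHT 4 of 9 (Cd14, Egr2, Mmp12 and Msr1) were lower in shRNA cells and 0 higher, with summed levels of 5.87 to 6.17 in shRNA cells and 6.42 to 6.63 in control cells. Of 8 tested myeloid progenitor markers Kit was higher and Ptprc lower in shRNA cells. With slide as a random block 0 of all genes passed, so these 6 did not pass either. Their adjusted p was 0.221 for Cd14, 0.193 for Egr2, 0.142 for Mmp12, 0.194 for Msr1, 0.0813 for Kit and 0.117 for Ptprc. Their part in the differences was not tested.

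The response to 4-OHT was not shown to differ between vectors for any member. Of 32, 0 passed with limma, beside 0% of all genes, and 1, Itgam, had an unadjusted p under 0.05. The difference of responses of Itgam, shRNA minus control, was -0.49 (95% interval -0.94 to -0.05, unadjusted p = 0.0330, adjusted p = 0.932), and -0.10 with slide as a fixed block. Itgal read -0.88, -0.85 and -0.84 in shRNA cells after 4-OHT, against -0.81, -0.85 and -0.86 before it, and -0.85, -0.78 and -0.68 in control cells after 4-OHT, against -0.93, -1.14 and -0.84 before it. Its difference of responses was -0.21 (-0.46 to 0.04, adjusted p = 0.955), and that of Itga1 was -0.30 (-0.65 to 0.06, adjusted p = 0.956). Itgax and Icam1, the other large rises, had differences of -0.06 (adjusted p = 0.974) and -0.05 (adjusted p = 0.989).

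Probes of the same gene did not always move alike. Of 3 Itga6 probes, the brightest showed no vector difference before 4-OHT (-0.01), while the probe A_52_P324934 at chr2:71698562-71698621 (mm7) was the only member probe that passed there. It read -3.41, -3.58 and -4.04 in shRNA cells before 4-OHT, against -2.62, -2.33 and -2.45 in control cells, and -4.55, -4.27 and -4.17 in shRNA cells after 4-OHT, against -3.74, -3.40 and -3.41 in control cells. The shRNA arrays lay below the control arrays at both times, by -1.21 (SE 0.17, adjusted p = 0.0246) before and -0.81 (SE 0.17, adjusted p = 0.0183) after 4-OHT, adjusted over all probes. With slide as a fixed block, an alternative chosen after seeing the data, these were -1.37 (adjusted p = 0.118) and -0.38 (adjusted p = 0.853). The third Itga6 probe, at chr2:71699847-71699906, had the opposite sign after 4-OHT, at 0.37 (adjusted p = 0.0408).

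A dim Itgb3bp probe, A_52_P327506, at chr4:99220236-99220295, rose with 4-OHT where the 2 brighter probes, at chr4:99159066-99159125 and chr4:99160171-99162147, did not pass. It read -4.58, -4.29 and -4.38 in shRNA cells after 4-OHT, against -5.37, -5.42 and -5.98 before it, and -3.81, -3.99 and -4.06 in control cells after 4-OHT, against -5.03, -5.48 and -5.24 before it. No array before 4-OHT was well above background on this probe, and all 6 after it were. An Eif6 probe, A_52_P371949, fell by 0.61 in shRNA cells and by 0.60 in control cells, against changes of -0.19 and -0.13 on the brightest probe. After 4-OHT that dimmer Eif6 probe was lower in shRNA than in control cells by -0.61 (adjusted p = 0.0339), where the brightest gave -0.06, and 1 dimmer Itga4 probe by -0.32 (adjusted p = 0.0347). The 2 Itga3 probes had opposite signs in shRNA cells, at 0.19 and -0.46. In the comparisons above, each gene is represented by its brightest probe.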

How the data were processed

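RNA from 12 PUER cultures was hybridised to one-colour mouse arrays (design 014868, probes on mm7, per the file headers). The authors read the arrays with Agilent Feature Extraction 9.5.3.1, per the file headers; the deposited values are linear intensity per spot, background-subtracted and not scaled between arrays. A summary of those arrays, also deposited, differed from the scanner values by at most 0.497%. A level is log2 intensity minus the array's 75th percentile (1196 to 2583), computed here from the deposited intensity; outlier spots were left out and spots of a probe averaged. Between 50.3% and 55.7% of spots were well above background, and the number of arrays limits the precision. Genes were named through the RefSeq genes of GRCm38.p6, with 23082 probes by accession, 6582 by symbol, 3073 by older symbol, and 8437 kept the file's name.

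One probe per gene, the brightest by mean among those well above background on at least 3 of 12 arrays and present on 2 arrays of each group, was fitted with limma 3.58.1 in R 4.3.3 with data.table, version 1.17.8, as 4 group means over all arrays (15061 genes). Adjusted p is Benjamini-Hochberg over those genes, threshold 0.05. The fit was tested on simulated data with independent noise on each array and no slide effect, so that test gives no error rate for the comparisons between vectors. Slides, from the file headers, were: slide 1, the control arrays before 4-OHT and control A after; slide 2, control B and C after 4-OHT and shRNA A and B before; slide 3, all shRNA arrays after 4-OHT and shRNA C before. Values on each array are given for the 6 largest rises and falls with 4-OHT, for members that passed between vectors or, where fewer than 3 did, those of smallest p, and for saturated members; probes named for disagreement were chosen after their values were seen. The replicate letters may mark clones or experiments, but no label says that a letter is shared between groups. They were therefore not used as pairs in the main fit. Deviations from the group mean correlated between same-letter arrays with r from -0.087 to 0.304, and between arrays of different letters from -0.325 to 0.173. These values do not settle whether a letter is shared. Alternatives were quantile scaling, normexp background, the summary table, filters on dim and saturated spots, slide and replicate blocks, single groups, each array left out, and every probe. Figures used Python 3.11.15 with matplotlib 3.10.9. Members and lists were chosen with earlier results of these data known. The values of 1 tested member, which the counts include, are not reported here.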

Additional observations from a re-analysis of the deposited data

How the results depend on the processing

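The counts of members called with 4-OHT stayed within 1.5 times of the reported ones under every alternative run. Of 883 recomputed values for the named members, 777 kept direction and side of the threshold. Among the 4-OHT changes of the largest rises and falls, the Icam4 rise in control cells alone lost its call; normexp background correction shrank the log2 changes of Itgax (to 3.05 in shRNA and 3.21 in control cells), Icam1 (to 1.26 and 1.47), Vcam1 and, in control cells, Itgae (to -0.48) by over 1.5 times with their calls kept. The calls between vectors depended on the setting. After 4-OHT, the 8 became 4 with normexp (0 higher and 4 lower, 2 of them shared), beside 1729 of all genes. The median log2 difference over all genes was then -0.13, against -0.04 in the main fit. The 8 became 0 without a filter on dim probes (358 of all genes) and with only the groups of the contrast (1107). They also became 0 with slide as a fixed block (1) and as a random block (0, correlation 0.386 within a slide). In the main fit 2512 of all genes passed. Leaving out single arrays gave 0 to 8 after 4-OHT and 0 to 1 before it, beside 308 to 3016 and 0 to 496 over all genes. The 1 call before 4-OHT was Selp (0.40) without shRNA replicate A; testing every probe also gave 1, in Itga6. With slide as a fixed block, Itgav (0.0042) and Itgb1 (-0.023) turned sign after 4-OHT. The replicate block gave 7 calls after 4-OHT, ending only that of Pecam1 (adjusted p = 0.0599), and changed no other count by over 1.5 times; as a block within each vector, it gave 17 calls with 4-OHT in shRNA cells and 19 in control cells. The causes were not tested. No member's difference of responses passed under any alternative. Genes near background and saturated spots, such as Cd9, have uncertain sizes.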
